A study of Mus musculus with 12 samples.

Results

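The genes described are the ion channel subunits of cultured cardiac fibroblasts. A gene was taken when its platform symbol began with Kcn, Cacn, Trpc, Trpm or Trpv, was Scn followed by a number and a or b, or was Piezo1 or Piezo2. This gave 173 probe sets with a single gene symbol and 150 genes of the 19938 tested, each represented by its brightest probe set. The 3 genes Kcnd3os, Kcnmb4os1 and Kcnmb4os2 are annotated as lncRNA, Trpc5os is named as an opposite-strand gene of Trpc5, and Trpc4ap, which binds a TRPC channel, is not a channel. They were kept because the rule takes them. In the subfamily counts, Kcnmb4os1 and Kcnmb4os2 are among the 19 potassium channel accessory genes because their symbols begin with Kcnmb. Trpc2 lay on a probe set with several symbols and was not analysed here.

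Expression was measured in cardiac colony-forming fibroblasts (cCFU-F), primary cells sorted from the hearts of male C57BL/6 mice aged 12 weeks as SCA1+PDGFRα+CD31- and kept in culture. The study concerns signalling through the PDGF receptor, and all cells were of the same strain with no engineered allele named. Of 12 one-colour arrays, 3 were of untreated cells, 3 of cells exposed to PDGF-AB, a ligand of the PDGF receptors, at 50 ng/ml, and 3 each of cells exposed to 1 uM or 10 uM of AG1296. AG1296 blocks the tyrosine kinase of PDGF receptors and also acts on related kinases. The sources used here do not give the length of treatment, the vehicle or the number of animals, and nothing says that arrays of a group came from separate cultures, so the p-values measure the spread between these arrays, which may be technical.

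Ion channels are built from pore-forming subunits, which select the ion, and accessory subunits, which set gating, trafficking and sensitivity to calcium. Cardiac fibroblasts do not fire action potentials, but potassium channels set their resting potential, and TRP and Piezo channels let cations in on stretch or receptor activation. TRPC, TRPM7 and Piezo channels are studied in fibroblasts for calcium entry and the change to myofibroblasts.

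Array medians ran from 4.02 to 4.13 on the log2 scale. The 95th percentile of 1035 olfactory receptor probe sets, genes with no known role in fibroblasts, ran from 3.21 to 3.51 and is used here as the background level. Arrays of a group correlated across genes, which are not independent replicates, at r of 0.992 to 0.996. PDGF-AB replicate 1 had the lowest mean r with the arrays of other groups, 0.99, against 0.992 to 0.993 for the remaining arrays. Without it, 1 channel gene and not 2 was called between PDGF-AB and untreated. Calls numbered 9 and not 8 between PDGF-AB and 1 uM AG1296, and 3 and not 5 between PDGF-AB and 10 uM. Calls over all genes without this array are not given here, so these changes cannot be read as particular to the channel genes. The 8 fibroblast markers were all above background on every array. Of the other markers, 6 of 8 for smooth muscle and pericytes, 3 of 5 for Schwann cells, 4 of 8 for cardiomyocytes, 3 of 7 for leukocytes, 1 of 7 for endothelium and 1 of 7 for neurons were above it on every array. The summed log2 level of the fibroblast markers was 73.2 to 73.8 untreated, 74.0 to 74.9 with PDGF-AB, 74.9 to 75.3 at 1 uM AG1296 and 75.0 to 75.4 at 10 uM, and that of the leukocyte markers was 24.5 to 25.3, 26.0 to 26.9, 25.2 to 25.7 and 24.8 to 25.2 in that order. These sums hide unequal members. Pdgfra, the receptor in the sort gate, fell by 0.91 at 1 uM (limma adjusted p 3.84e-05) and by 0.40 at 10 uM (limma adjusted p 0.0361), while the matrix gene Dcn rose by 1.70 at 1 uM (limma adjusted p 8.21e-07) and by 0.75 at 10 uM (limma adjusted p 0.00155). Col1a1 (0.51 and 0.53) and Col3a1 (0.37 and 0.54) were also called higher at 1 uM and 10 uM. Of the 7 leukocyte markers only Cd53 was called with PDGF-AB against untreated (1.77, limma adjusted p 0.00584), and their median difference was 0.01. Lyz2 went the other way, lower with PDGF-AB than at 1 uM (-0.79, limma adjusted p 0.0239) and at 10 uM (-1.02, limma adjusted p 0.00634). Against untreated, Tek was the only call among endothelial, cardiomyocyte, Schwann cell and neuron markers (0.73 at 1 uM, limma adjusted p 0.000761). The part of these markers in the channel results was not tested. Dusp6, a feedback target of ERK signalling, was lower than in untreated cells at 1 uM AG1296 (log2 fold change -0.64, limma adjusted p 0.00198) and at 10 uM (-0.78, adjusted p 0.000647), and PDGF-AB against untreated gave 0.02 (limma adjusted p 0.972). In RNA from a whole culture, fewer cells of a type and less RNA per cell cannot be told apart.

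Most channel genes gave a signal near background. On all 12 arrays, 56 of the 150 genes (37.3%) exceeded the background level, against 61.1% of all genes, and 54 lay below it. Only 27 (18%) exceeded the array median on every array, against 50.6% of all genes. Above background on every array were both Piezo genes, 11 of 35 voltage-gated potassium pore genes, 8 of 14 two-pore-domain potassium channels, 6 of 19 potassium channel accessory genes, 5 of 15 inward rectifiers, 5 of 7 calcium channel gamma subunits and 3 of 10 calcium channel pores. Of the TRP genes, Trpc1, Trpc6, Trpm4, Trpm7, Trpv2 and Trpv4 did so. A fold change of a gene near background is limited by that background.

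Differences with a p under 0.05 after Benjamini-Hochberg adjustment over all genes in the limma fit are named calls. With PDGF-AB, 2 channel genes were lower than in untreated cells and 0 were higher, where 0.331% of all genes were called (0.211% lower, 0.12% higher). At 1 uM AG1296, 4 were higher and 4 lower, against 3.2% of all genes (1.88% higher, 1.33% lower). At 10 uM AG1296, 2 were higher and 0 lower, against 1.88% (1.21% higher, 0.672% lower). Between PDGF-AB and AG1296 at 1 uM, 2 were higher and 6 lower with PDGF-AB, against 5.21% (2.28% higher, 2.93% lower). Between PDGF-AB and AG1296 at 10 uM, 1 was higher and 4 lower with PDGF-AB, against 3.42% (1.42% higher, 2% lower). Groups of 3 arrays that do not overlap were common in all genes. They did not overlap for 22 of the 150 channel genes with PDGF-AB against untreated (13.3% of all genes), 24 at 1 uM (20.3%) and 25 at 10 uM (18%). The counts were 24 between the doses (15.9%), 23 between PDGF-AB and 1 uM (21.8%) and 20 between PDGF-AB and 10 uM (18.1%). In all, 11 of 150 genes (7.33%) were called in at least 1 comparison or in the F test over the 4 groups. This share is near the 7.06% of all genes. The same 7.06% applies to the subfamily counts below. With 2 to 35 genes each, a count in 1 subfamily is not read here as a result about it. The median log2 fold change of the 150 genes against untreated was 0.03 with PDGF-AB, -0.01 at 1 uM and 0.04 at 10 uM, beside 0.01, -0.01 and 0.01 over all genes. The 3 comparisons with untreated share the untreated arrays.

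**Figure D1:**
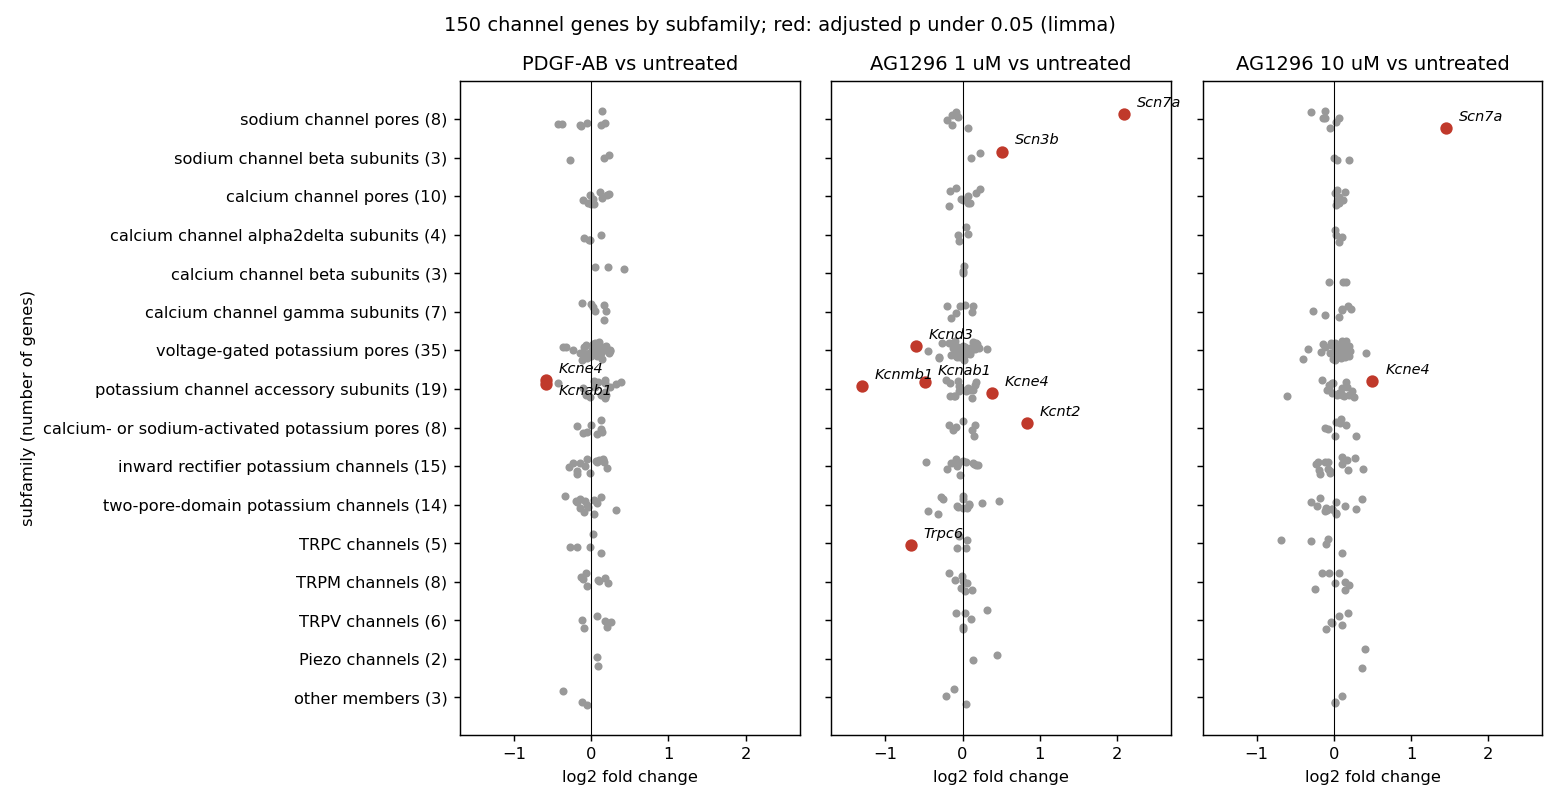
Log2 fold change against untreated (x axis) of each of the 150 channel genes, by subfamily (y axis, with the number of genes), for PDGF-AB, AG1296 at 1 uM and AG1296 at 10 uM; red points were called at an adjusted p under 0.05. Most genes lie near 0, and Scn7a, at 2.09 and 1.45 with AG1296, lies farthest to the right.

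Among sodium channel pore genes, 1 of 8 was called, Scn7a. It encodes Nax, a member of the family known as a sensor of extracellular sodium rather than a voltage-gated channel. The 250 bases before its RefSeq transcription start (GRCm38.p6, chr2:66784911-66785160, minus strand) are shown because Scn7a had the largest response among the channel genes. Capitals mark matches to a TEAD motif (GGAATG, 188 to 183 bases before the start) and to the reverse complement of an EGR motif (CGCCCACGC, 125 to 117 bases before the start).
Scn7a: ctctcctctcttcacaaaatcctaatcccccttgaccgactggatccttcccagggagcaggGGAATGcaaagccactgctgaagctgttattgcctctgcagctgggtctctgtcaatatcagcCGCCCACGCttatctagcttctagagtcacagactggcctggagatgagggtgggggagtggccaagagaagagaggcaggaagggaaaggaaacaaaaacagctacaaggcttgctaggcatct

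On the untreated arrays Scn7a measured 4.64, 4.77 and 4.61 (log2 expression), and with PDGF-AB 4.34, 4.15 and 4.40. With AG1296 it measured 6.69, 6.85 and 6.74 at 1 uM and 6.33, 6.24 and 5.78 at 10 uM. The 4 groups did not overlap: the PDGF-AB arrays were lowest and the 1 uM arrays highest. Scn7a rose 4.25-fold at 1 uM AG1296 (log2 fold change 2.09 ± 0.13 SE, limma adjusted p 9.68e-07, n = 3 arrays per group), the largest rise of the 19938 genes in that comparison. At 10 uM it rose 2.72-fold (1.45 ± 0.13, limma adjusted p 5.42e-05), the rise of rank 3. PDGF-AB against untreated gave -0.38 ± 0.13 with a limma adjusted p of 0.39, so a fall was not called although the arrays did not overlap. The lower value at 10 uM than at 1 uM (-0.64, 95% interval -0.92 to -0.36) missed the threshold at a limma adjusted p of 0.0574 and passed after quantile normalization, without dim genes and with an intensity trend (adjusted p 0.00957 to 0.0468). Between PDGF-AB and 1 uM AG1296 the log2 difference was -2.46 (limma adjusted p 6.97e-08), a 5.52-fold range. Scn7a is also known from Schwann cells. Of 7 listed Schwann cell markers 5 were measured and 0 were called. Their summed log2 levels were 17.8 to 18.4 in untreated cells, 18.2 to 18.8 with PDGF-AB, 17.9 to 18.4 at 1 uM and 17.8 to 18.1 at 10 uM. Sox10 averaged 3.67, 3.94, 3.73 and 3.80 in the same order. The markers differed in direction against untreated, from -0.51 (Erbb3) to 0.35 (Cdh19) with PDGF-AB. They ran from -0.36 (Erbb3) to 0.31 (Cdh19) at 1 uM and from -0.43 (Erbb3) to 0.18 (S100b) at 10 uM. The part of Schwann cells in the Scn7a result was not tested.

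The other sodium channel pore gene above background on every array was Scn2a, a neuronal channel pore. Its brightest probe set averaged 5.44 in untreated cells, 5.01 with PDGF-AB, 5.25 at 1 uM and 5.15 at 10 uM and was not called (PDGF-AB against untreated -0.43, limma adjusted p 0.347). The 14 single-symbol probe sets of Scn2a disagreed, with PDGF-AB differences from -0.63 to 0.15. Of 3 beta subunits, which steer pore density and gating, Scn3b was called. Its untreated arrays measured 4.07, 4.21 and 3.94, those with PDGF-AB 3.66, 3.95 and 3.79, those at 1 uM AG1296 4.51, 4.52 and 4.70, and those at 10 uM 3.98, 4.34 and 3.88. The 1 uM arrays lay above every other array, while the 10 uM arrays overlapped the untreated ones. Scn3b was lower with PDGF-AB than at 1 uM AG1296 by 0.78 ± 0.13 (1.72-fold, limma adjusted p 0.00171, n = 3 arrays per group). Its rise at 1 uM against untreated (0.51 ± 0.13, limma adjusted p 0.0451) was lost without any 1 of 8 arrays (each untreated or 1 uM array, PDGF-AB replicate 3 or 10 uM replicate 1), at adjusted p of 0.0598 to 0.178, after quantile normalization (0.08) and after median centring (0.0695). Scn4b was below background, with group means from 2.17 to 2.40.

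No gene of the 4 calcium channel groups was called: 0 of 10 pores, 0 of 4 alpha2delta subunits, 0 of 3 beta subunits and 0 of 7 gamma subunits in the limma fit. Over all genes 7.06% were called in at least 1 comparison or the F test, a share at which groups this small may hold no call. At an unadjusted p under 0.05, 2 of the 10 pores passed with PDGF-AB, 2 at 1 uM and 0 at 10 uM, where 8.55%, 13.1% and 11.4% of all genes did. Cacna1c, the L-type pore Cav1.2, averaged 4.0 in untreated cells, 4.23 with PDGF-AB, 4.18 at 1 uM and 4.02 at 10 uM. Every PDGF-AB array of Cacna1c (4.15, 4.32 and 4.20) lay above every untreated array (4.04, 4.03 and 3.92), yet the difference of 0.23 (95% interval 0.05 to 0.41) had a limma adjusted p of 0.435. Cacna1g, the T-type pore Cav3.1, was near background, at means from 3.16 to 3.38. Cacna2d1, the alpha2delta subunit that carries pores to the membrane, measured 6.54, 6.52, 6.61 and 6.60 on average in untreated, PDGF-AB, 1 uM and 10 uM cells. Its differences from untreated had 95% intervals within -0.27 to 0.32. Cacnb1, a cytoplasmic beta subunit, measured 4.11, 3.93 and 4.09 untreated and 4.26, 4.49 and 4.64 with PDGF-AB, with 4.13, 4.07 and 4.0 at 1 uM and 4.35, 4.14 and 4.13 at 10 uM. The PDGF-AB arrays of Cacnb1 lay above the untreated and 1 uM arrays, at 0.42 (limma adjusted p 0.209) and 0.40 (limma adjusted p 0.0544), the latter passing without PDGF-AB replicate 1 (adjusted p 0.0175). Among the gamma subunits Cacng1 averaged 4.12, 4.29, 4.25 and 3.86 over the 4 groups in that order.

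Potassium channel accessory subunits held 3 of the 11 called genes. Kcne4 encodes a single-pass subunit that reduces the current of KCNQ1 and some Kv1 channels. The 250 bases before its RefSeq start (GRCm38.p6, chr1:78816661-78816910, plus strand) are shown because Kcne4 was the channel gene called in opposite directions with ligand and inhibitor. Capitals mark an E-box (CACGTG, 54 to 49 bases before the start).
Kcne4: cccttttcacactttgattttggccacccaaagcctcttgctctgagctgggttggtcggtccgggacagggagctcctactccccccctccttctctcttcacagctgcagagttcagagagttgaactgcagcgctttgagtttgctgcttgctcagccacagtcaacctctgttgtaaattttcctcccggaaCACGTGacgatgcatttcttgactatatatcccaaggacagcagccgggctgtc

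Kcne4 measured 5.82, 6.01 and 6.04 on the untreated arrays and 5.40, 5.40 and 5.33 with PDGF-AB. At 1 uM AG1296 it measured 6.42, 6.33 and 6.25 and at 10 uM 6.39, 6.53 and 6.44. All PDGF-AB arrays lay below all untreated ones, all 6 AG1296 arrays lay above them, and the 2 doses overlapped. Kcne4 fell by 0.58 ± 0.09 SE with PDGF-AB (1.49-fold, limma adjusted p 0.0144, n = 3 arrays per group). It rose by 0.50 ± 0.09 at 10 uM AG1296 (limma adjusted p 0.00862) and by 0.38 ± 0.09 at 1 uM (limma adjusted p 0.0338). PDGF-AB against AG1296 gave -0.95 at 1 uM (limma adjusted p 1.2e-05) and -1.08 at 10 uM (limma adjusted p 8.62e-06), and these calls held without any 1 array. The 3 calls against untreated did not. The call with PDGF-AB was lost without untreated replicate 2 or 3 or PDGF-AB replicate 2 or 3 (adjusted p 0.0542 to 0.0854) and in a fit of the 6 compared arrays alone (0.139). The call at 1 uM was lost without any 1 of those 6 arrays (0.0529 to 0.154), after median centring (0.0583) and with the 6 arrays alone (0.0932). The call at 10 uM was lost without 10 uM replicate 2 (0.0504) and with the 6 arrays alone (0.0541).

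Kcnab1, the cytoplasmic Kv beta1 subunit that speeds inactivation of Kv1 channels, measured 7.98, 7.81 and 7.72 untreated, 7.11, 7.28 and 7.35 with PDGF-AB, 7.32, 7.32 and 7.38 at 1 uM AG1296 and 7.65, 7.73 and 7.64 at 10 uM. The PDGF-AB and 1 uM arrays lay below the untreated ones, and the 10 uM arrays overlapped them. Kcnab1 fell by 0.59 ± 0.09 with PDGF-AB (1.51-fold, limma adjusted p 0.0157, n = 3 arrays per group) and by 0.49 ± 0.09 at 1 uM (1.41-fold, limma adjusted p 0.00871). It was lower with PDGF-AB than at 10 uM by 0.43 ± 0.09 (limma adjusted p 0.0203). Ligand and 1 uM inhibitor thus differed from untreated in the same direction for Kcnab1, and the difference between them was -0.10 (95% interval -0.30 to 0.11). The PDGF-AB call was lost without untreated replicate 1 or 2 or PDGF-AB replicate 1 or 2 (adjusted p 0.057 to 0.0899) and with the 6 compared arrays alone (0.191). At 1 uM, leaving out untreated replicate 1 gave 0.0509. The call between PDGF-AB and 10 uM was lost without PDGF-AB replicate 1 or 2 or 10 uM replicate 1 or 2 (0.0505 to 0.0909) and with those 6 arrays alone (0.0795).

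Kcnmb1 encodes the beta1 subunit of BK channels, which raises their calcium sensitivity and is known from smooth muscle. The 250 bases before its RefSeq start (GRCm38.p6, chr11:33962763-33963012, plus strand) are shown because Kcnmb1 had the largest fall among the channel genes. None of the 6 motifs searched was found in this window, so it has no capitals.
Kcnmb1: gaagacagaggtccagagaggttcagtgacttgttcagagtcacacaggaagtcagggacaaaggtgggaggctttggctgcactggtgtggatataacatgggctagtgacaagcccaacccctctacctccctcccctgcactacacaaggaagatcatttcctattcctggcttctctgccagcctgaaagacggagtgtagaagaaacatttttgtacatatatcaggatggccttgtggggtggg

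Kcnmb1 measured 5.67, 5.66 and 5.53 on the untreated arrays and 5.04, 5.49 and 5.04 with PDGF-AB. It measured 4.06, 4.41 and 4.49 at 1 uM AG1296 and 5.11, 5.14 and 4.79 at 10 uM. The untreated arrays were the highest and the 1 uM arrays the lowest, with PDGF-AB and 10 uM overlapping between them. Kcnmb1 fell by 1.30 ± 0.15 SE at 1 uM (2.46-fold, limma adjusted p 0.000145, n = 3 arrays per group) and was higher with PDGF-AB than at 1 uM by 0.87 ± 0.15 (limma adjusted p 0.0022). At 10 uM the difference from untreated was -0.61 (limma adjusted p 0.0562), and 10 uM against 1 uM gave 0.70 with a 95% interval of 0.38 to 1.01 (limma adjusted p 0.0689). The first passed in 7 alternatives (adjusted p 0.0163 to 0.0493), among them without PDGF-AB replicate 2 or 1 uM replicate 1, and the second in 3 (0.0131 to 0.0448), among them without PDGF-AB replicate 2. Kcnma1, the pore that Kcnmb1 binds, had group means from 2.56 to 2.79, below background. Of 8 smooth muscle and pericyte markers, Cnn1 (-0.70, limma adjusted p 0.00337) and Mcam (-1.42, limma adjusted p 1.15e-06) were also lower at 1 uM, while the other 6 were not called there (-0.02 for Acta2, -0.08 for Tagln, -0.10 for Des, 0.02 for Rgs5, 0.06 for Cspg4 and 0.26 for Myh11). At 10 uM Mcam was lower (-0.59, limma adjusted p 0.00381) and Myh11 higher (0.54, limma adjusted p 0.0398). The summed log2 level of the 8 markers was 52.6 to 53.0 untreated, 52.5 to 52.7 with PDGF-AB, 50.6 to 51.0 at 1 uM and 52.4 to 53.2 at 10 uM, and Rgs5, a pericyte marker, was below background at means from 2.55 to 2.65. The part of these cells in the Kcnmb1 result was not tested. Kcnip1 overlaps Kcnmb1 in the RefSeq annotation and was below background at means from 2.78 to 3.08.

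**Figure D2:**
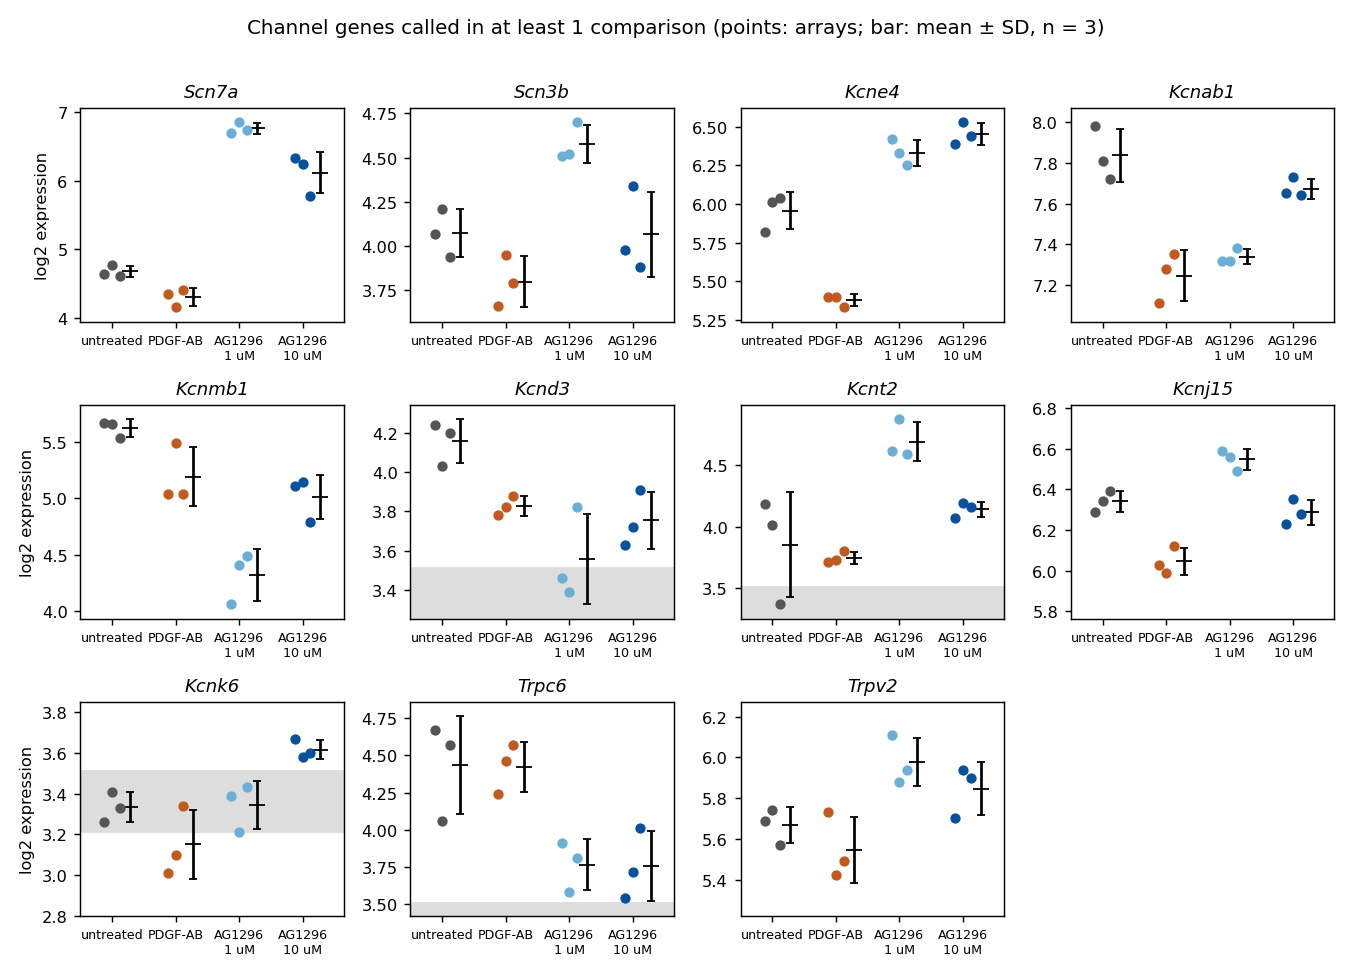
Log2 expression (y axis, own range in each panel) of the 11 channel genes called in at least 1 comparison, by group (x axis); points are arrays, bars the mean ± SD of 3 arrays, and the grey band the range over arrays of the olfactory receptor background level, 3.21 to 3.51. Scn7a and Kcnmb1 lie farthest from untreated at 1 uM AG1296, Kcne4 moves down with PDGF-AB and up with AG1296, and Kcnk6 lies in or near the band.

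Of 35 voltage-gated potassium pore genes, Kcnd3 was called. It encodes Kv4.3, a pore of the transient outward current. Untreated arrays of Kcnd3 measured 4.24, 4.03 and 4.20, those with PDGF-AB 3.78, 3.82 and 3.88, those at 1 uM AG1296 3.46, 3.39 and 3.82, and those at 10 uM 3.63, 3.72 and 3.91. All 9 treated arrays lay below all 3 untreated ones, and 2 of the 1 uM arrays lay within the range of the background level. Kcnd3 fell by 0.60 ± 0.12 at 1 uM (1.51-fold, limma adjusted p 0.0119, n = 3 arrays per group), with -0.33 for PDGF-AB (limma adjusted p 0.428) and -0.40 for 10 uM (limma adjusted p 0.133). At 1 uM the call did not hold without untreated replicate 1 or 3 or 1 uM replicate 1 or 2 (adjusted p 0.0537 to 0.0694) and with the 6 compared arrays alone (0.0537). The lncRNA Kcnd3os, which overlaps Kcnd3, averaged 6.04, 5.98, 5.83 and 6.14 over untreated, PDGF-AB, 1 uM and 10 uM. Kcnf1, a silent Kv subunit, lay near or below background and gave -0.45 at 1 uM (limma adjusted p 0.059).

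Of 8 calcium- or sodium-activated potassium pore genes, Kcnt2 was called. It encodes Slick, a potassium channel opened by intracellular sodium. Kcnt2 measured 4.18, 4.01 and 3.37 untreated, 3.71, 3.73 and 3.80 with PDGF-AB, 4.61, 4.87 and 4.59 at 1 uM AG1296 and 4.07, 4.19 and 4.16 at 10 uM. The 1 uM arrays lay above all others, and untreated replicate 3 lay within the range of the background level. Kcnt2 rose by 0.84 ± 0.16 at 1 uM (1.79-fold, limma adjusted p 0.0103, n = 3 arrays per group) and was lower with PDGF-AB than at 1 uM by 0.95 ± 0.16 (limma adjusted p 0.00253). The rise was lost without 1 uM replicate 2 (adjusted p 0.056) and with the 6 compared arrays alone (0.0736). Kcnn4, a calcium-activated channel studied in fibroblast growth, had group means from 3.54 to 3.70 and no call.

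Of 15 inward rectifiers, Kcnj15, the Kir4.2 pore, was called between PDGF-AB and 1 uM AG1296. It measured 6.29, 6.34 and 6.39 untreated, 6.03, 5.99 and 6.12 with PDGF-AB, 6.59, 6.56 and 6.49 at 1 uM and 6.23, 6.35 and 6.28 at 10 uM. The PDGF-AB arrays lay below and the 1 uM arrays above all other arrays. The difference between them was -0.50 ± 0.08 (1.41-fold, limma adjusted p 0.00163, n = 3 arrays per group), while neither differed from untreated past the threshold (-0.29, limma adjusted p 0.227, and 0.20, limma adjusted p 0.271). Kcnj14, the Kir2.4 pore, measured 4.52, 4.54 and 4.49 at 1 uM, below its untreated (5.28, 4.74 and 4.95), PDGF-AB (5.47, 4.84 and 4.95) and 10 uM arrays (4.92, 4.93 and 4.91). It was not called: PDGF-AB against 1 uM gave 0.57 (95% interval 0.24 to 0.90) at a limma adjusted p of 0.0509. That difference passed in 6 alternatives (adjusted p 0.0198 to 0.0402), among them without untreated replicate 1 or 2 or PDGF-AB replicate 2, and 1 uM against untreated passed without PDGF-AB replicate 1 (0.0464). The KATP pores Kcnj8 (means 3.53 to 3.70) and Kcnj11 (means 4.27 to 4.61) had no call, and Kcnj2, the Kir2.1 pore, was below background at means from 1.57 to 1.81.

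Of 14 two-pore-domain channels, which carry background potassium current, Kcnk6 (TWIK2) was called between PDGF-AB and 10 uM AG1296. It measured 3.26, 3.41 and 3.33 untreated, 3.01, 3.10 and 3.34 with PDGF-AB, 3.39, 3.21 and 3.43 at 1 uM and 3.67, 3.58 and 3.60 at 10 uM. The 10 uM arrays were above all others, which lay within or below the range of the background level. The difference of -0.47 ± 0.10 (limma adjusted p 0.0197, n = 3 arrays per group) was lost without any 1 of 5 of the 6 compared arrays, all but PDGF-AB replicate 3 (adjusted p 0.0537 to 0.0867), and with the 6 alone (0.0798). Kcnk2 (TREK-1), a stretch-activated potassium channel, measured 4.67, 4.61 and 4.47 untreated, 4.55, 4.49 and 4.41 with PDGF-AB, 3.94, 4.18 and 4.26 at 1 uM and 4.54, 4.36 and 4.76 at 10 uM. Its 1 uM arrays lay below all others, but the difference from untreated of -0.45 (95% interval -0.70 to -0.20) missed the threshold at a limma adjusted p of 0.052. It passed in 4 alternatives (adjusted p 0.0356 to 0.0499), among them without 10 uM replicate 2 or 3.

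Among TRP channels, 1 of 5 TRPC, 0 of 8 TRPM and 1 of 6 TRPV genes were called. Trpc6, a cation channel opened by diacylglycerol downstream of growth factor receptors, measured 4.67, 4.06 and 4.57 untreated and 4.24, 4.46 and 4.57 with PDGF-AB. With AG1296 it measured 3.91, 3.58 and 3.81 at 1 uM and 3.54, 3.72 and 4.01 at 10 uM. All 6 AG1296 arrays lay below the 6 untreated and PDGF-AB arrays, and the 2 doses overlapped. Trpc6 fell by 0.67 ± 0.16 at 1 uM (1.59-fold, limma adjusted p 0.0435, n = 3 arrays per group), while 10 uM gave -0.68 ± 0.16 at a limma adjusted p of 0.0565, which passed in 6 alternatives (0.0146 to 0.0401), among them without untreated replicate 2 or 10 uM replicate 3. It was higher with PDGF-AB than with AG1296, by 0.65 at 1 uM (limma adjusted p 0.0336) and by 0.67 at 10 uM (limma adjusted p 0.0407), and PDGF-AB against untreated gave -0.01 (95% interval -0.37 to 0.34). None of these 3 calls held without each array in turn. The call at 1 uM was lost without untreated replicate 1 or 3, PDGF-AB replicate 2 or 3, any 1 uM replicate or 10 uM replicate 2 (adjusted p 0.0528 to 0.188), and with the 6 compared arrays alone (0.0891). The call between PDGF-AB and 1 uM was lost without PDGF-AB replicate 2 or 3 or any 1 uM replicate (0.0546 to 0.149). The call between PDGF-AB and 10 uM was lost without untreated replicate 3, PDGF-AB replicate 2 or 3, 1 uM replicate 1 or 3, or 10 uM replicate 1 or 2 (0.0522 to 0.169).

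Trpc1, a TRPC pore that forms channels with other family members, averaged 6.56, 6.37, 6.51 and 6.49 over untreated, PDGF-AB, 1 uM and 10 uM, with no call. Trpv2, a cation channel linked to stretch and growth factor signalling, measured 5.69, 5.74 and 5.57 untreated, 5.73, 5.42 and 5.49 with PDGF-AB, 6.11, 5.88 and 5.94 at 1 uM and 5.70, 5.94 and 5.90 at 10 uM. Its 1 uM arrays lay above the untreated and PDGF-AB arrays, and its 10 uM arrays overlapped all 3 other groups. Trpv2 was lower with PDGF-AB than at 1 uM by 0.44 ± 0.11 (limma adjusted p 0.0304, n = 3 arrays per group). That call did not hold on leaving out PDGF-AB replicate 2 or 3 or 1 uM replicate 1 or 3 (adjusted p 0.064 to 0.144), after quantile normalization (0.052) and with the 6 compared arrays alone (0.0876). Trpv4, an osmosensitive channel, had means from 3.72 to 3.92. Trpm7, a channel fused to a kinase that carries magnesium and calcium, averaged 6.75, 6.64, 6.87 and 6.81, and its PDGF-AB arrays alone ran from 6.34 to 6.91. The 95% intervals of its differences from untreated lay within -0.49 to 0.49. Trpm4, a calcium-activated monovalent channel, averaged 4.86, 4.73, 4.69 and 4.63, with intervals within -0.50 to 0.13.

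Piezo channels open on membrane tension. Piezo1 measured 8.49, 8.39 and 8.44 untreated, 8.39, 8.52 and 8.61 with PDGF-AB, 8.71, 8.58 and 8.46 at 1 uM AG1296 and 8.72, 8.85 and 8.94 at 10 uM. The 10 uM arrays lay above all others, but the difference of 0.40 from untreated (95% interval 0.19 to 0.60) had a limma adjusted p of 0.059. It passed in 4 alternatives (adjusted p 0.00318 to 0.0447), among them without PDGF-AB replicate 1. The 3 probe sets of Piezo1 gave 0.40, 0.22 and 0.32 in that comparison. Piezo2 measured 5.51, 5.73 and 5.56 untreated, 5.67, 5.98 and 5.41 with PDGF-AB, 6.14, 5.91 and 6.09 at 1 uM and 6.04, 6.06 and 5.78 at 10 uM. Both AG1296 groups lay above untreated, at 0.45 (limma adjusted p 0.114) and 0.36 (limma adjusted p 0.296), and neither passed. The difference at 1 uM passed without dim genes and with an intensity trend (adjusted p 0.0433 and 0.0431). The other 2 probe sets of Piezo2 gave 0.30 and 0.13 at 1 uM and 0.24 and 0.17 at 10 uM, and the 3 disagreed in direction with PDGF-AB, at 0.09, 0.23 and -0.44.

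**Figure D3:**
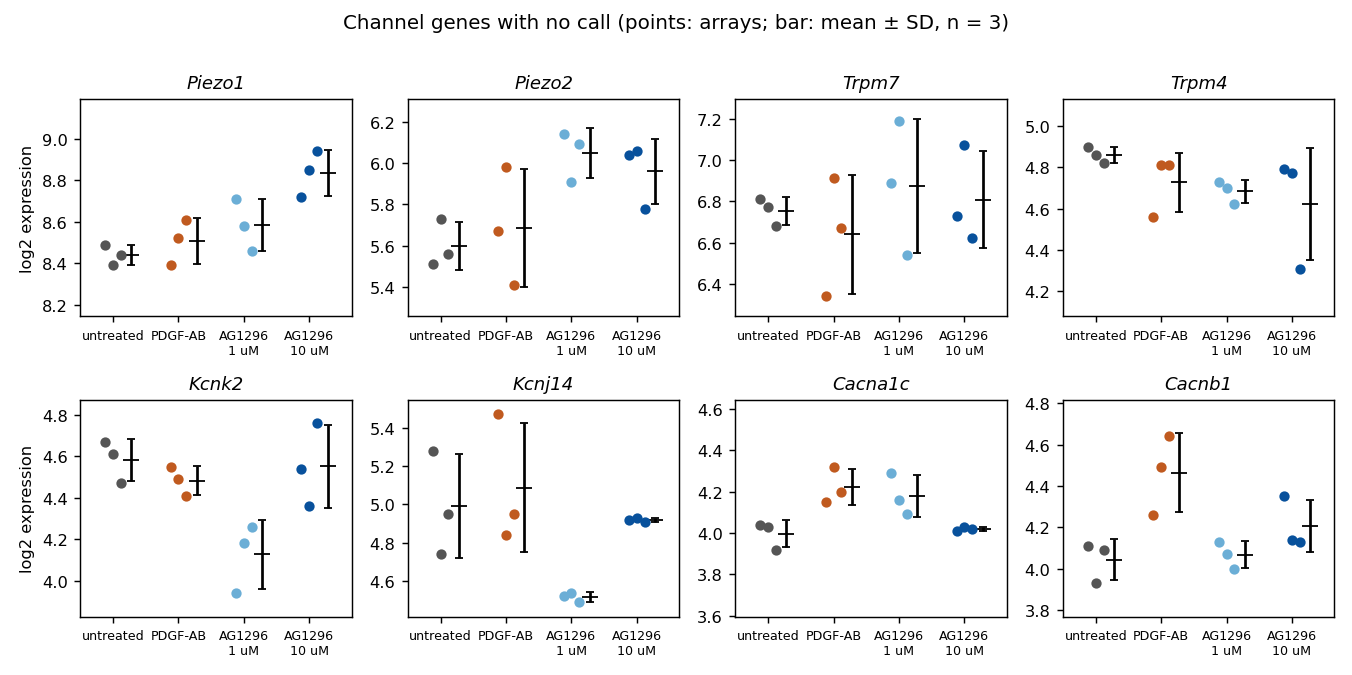
Log2 expression (y axis, own range in each panel) of 8 channel genes with no call, by group (x axis); points are arrays and bars the mean ± SD of 3 arrays. Kcnk2 and Kcnj14 are lowest at 1 uM AG1296 and Piezo1 is highest at 10 uM, while the groups of Trpm7 overlap.

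Both AG1296 doses were also compared directly. Between 10 uM and 1 uM, 0 of 150 channel genes were called by limma, with 16 (10.7%) at an unadjusted p under 0.05, near the 9.07% of all genes, and 0.376% of all genes were called (0.196% higher, 0.181% lower). Against untreated, the calls of Scn7a and Kcne4 were made at both doses. Scn3b, Kcnt2, Kcnab1, Kcnmb1, Kcnd3 and Trpc6 were called at 1 uM and not at 10 uM, and none of these differences between doses passed the test in the fit to all 12 arrays. For Scn3b the difference between 10 uM and 1 uM was -0.51 (95% interval -0.78 to -0.24, limma adjusted p 0.146), for Kcnt2 -0.55 (-0.90 to -0.20, limma adjusted p 0.257) and for Kcnab1 0.33 (0.13 to 0.53, limma adjusted p 0.229). For Trpc6 it was -0.01 (-0.37 to 0.34, limma adjusted p 0.99).

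**Figure D4:**
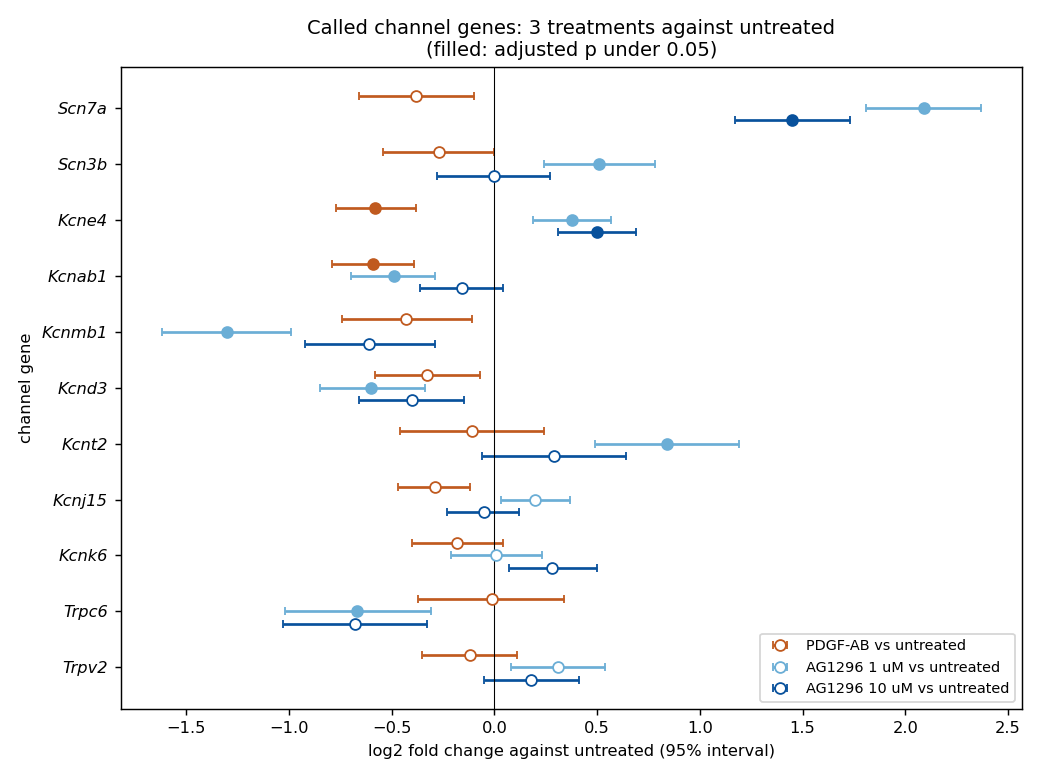
Log2 fold change against untreated (x axis) with its 95% interval from the limma fit, for PDGF-AB and both AG1296 doses in the 11 called channel genes (y axis); filled points were called against untreated at an adjusted p under 0.05. The 3 comparisons share the untreated arrays. Kcne4 has filled points on both sides of 0, and Kcnj15, Kcnk6 and Trpv2 have none because they were called only between PDGF-AB and AG1296.

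Promoter sequence was matched for 118 of the 150 genes and 9 of the 11 called ones, not Kcnk6 and Scn3b. In the 250 bases before each start, both strands were searched for AP-1 (TGANTCA), CRE (TGACGTCA), TEAD (GGAATG), E-box (CACGTG), EGR (GCGTGGGCG) and FOXO (GTAAACA) motifs, which do not contain one another. The E-box was present in 3 of 13 promoters of called channel genes (23.1%), in 5.73% of 157 promoters of all channel genes and in 6.02% of all 32851 promoters. Those 3 promoters belong to Kcne4 and, at 2 starts, to Kcnab1. The EGR motif was present in 1 of the 13 (7.69%), that of Scn7a, in 0.637% of channel promoters and in 0.536% of all. The TEAD motif was present in 15.4%, 14.6% and 12.6%. The AP-1, CRE and FOXO motifs were found in 0 of the 13, against 6.75%, 1.55% and 3.17% of all promoters. These are matches of letters, not sites shown to be bound.

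Other genes of ion handling were taken from fixed lists and are given for comparison with the channel genes. Of 16 measured genes of store-operated entry and calcium release, Stim1, the calcium sensor of the reticulum, rose at 1 uM AG1296 (0.46, limma adjusted p 0.0153), and Itpr2, an IP3 receptor, rose at 10 uM (0.47, limma adjusted p 0.0268). With PDGF-AB, Stim1 was lower than at 1 uM (-0.74, limma adjusted p 0.000229) and than at 10 uM (-0.57, limma adjusted p 0.0029). Of 13 pumps and exchangers, Atp1b1, a sodium pump subunit, fell by 0.79 at 1 uM (limma adjusted p 0.000294) and by 0.46 at 10 uM (limma adjusted p 0.0232), and Slc8a1, the sodium-calcium exchanger, rose by 0.51 at 1 uM (limma adjusted p 0.0397). Of 28 chloride and volume-regulated channel genes, Ano1 fell by 0.71 at 10 uM (limma adjusted p 0.0318). Its 10 uM replicates 1 and 2 (3.48 and 3.30) lay within the range of the background level, which limits this fold change. Clcn5 and Clic1 were higher with PDGF-AB than at either dose, and Lrrc8b was lower with PDGF-AB than at 10 uM (-0.42, limma adjusted p 0.0404). Of 18 connexins and pannexins, Gja1 was higher with PDGF-AB than at 10 uM (0.49, limma adjusted p 0.0402), and of 26 other cation channels, P2rx5 was higher with PDGF-AB than at 1 uM (0.54, limma adjusted p 0.00316). Of 24 channel partners, Ank2, an ankyrin that anchors transporters, rose at 1 uM (0.50, limma adjusted p 0.00207), and Rrad, which restrains calcium channels, was higher with PDGF-AB than at 1 uM (0.56, limma adjusted p 0.0295). No other gene of these 6 lists was called in any comparison. Genes called in at least 1 comparison or the F test were 2 of 16, 2 of 13, 4 of 28, 1 of 18, 1 of 26 and 2 of 24 in the order given. The share over all genes was 7.06%. Alternative fits were kept for the channel genes only, so the calls in these lists have no such check.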

How the data were processed

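Total RNA (100 ng, integrity number above 8.0 per the labels) was hybridised to Affymetrix one-colour arrays. Each probe set has a deposited log2 expression value. RMA (background subtraction, normalization between arrays, summary over probes) and limma were used by the authors per the submitters' processing notes, with no version given. The log2 base was read from the range of values. Values were used as deposited.

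Of 28853 probe sets, 5443 had no symbol, 1621 several and 21789 exactly 1. By gene ID, 21698 of the last were found in the RefSeq gene table, with 0 changed symbols. The probe set with the highest mean stood for each of 19938 genes. Genes were fitted with limma 3.58.1 in R 4.3.3: 1 mean per group over 12 arrays, empirical Bayes moderation (prior degrees of freedom 5.35, residual 8), 6 two-sided contrasts and an F test, with Benjamini-Hochberg adjustment over all genes and a threshold of 0.05. Precision is limited by the number of arrays. The script was tested on simulated data.

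The channel genes and gene lists were chosen with earlier results of these data known. Named are the called genes, 2 genes per subfamily with the smallest F test p and fixed channels studied in fibroblasts; Trpc1, Kcnd3os and Kcnip1 were added after their values were seen. Same-numbered arrays of different groups had correlated deviations at r of -0.031 to 0.298, with 9 of 18 pairs over 0.1. Differently numbered arrays gave r of -0.243 to 0.181. Same-numbered arrays may therefore share part of their spread. The labels state no pairing, so the main fit took none, and the replicate number was used as a block in an alternative. Alternatives were 12 refits that each left out 1 array and 7 other settings: quantile normalization, median centring, the mean of a gene's probe sets, leaving out dim genes, an intensity trend with robust moderation, only the 6 arrays compared, and the replicate number as a block. Promoters are from RefSeq (GRCm38.p6).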

Additional observations from a re-analysis of the deposited data

How the results depend on the processing

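No called difference changed direction in any alternative (0 reversed). Of 25 calls of a gene in a comparison, 11 held in all alternatives in which the gene was tested, among them the 4 of Scn7a. The other 14 were lost in at least 1. Kcnd3, Kcnk6, Kcnt2, Scn3b and Trpc6 were themselves among the dim genes left out, so that alternative did not test their calls. Calls gained in an alternative were listed for the 41 genes named by rule only, so gains of other channel genes enter the counts below without a name. Among the 41 genes, 17 other differences passed in at least 1 alternative. Besides those named above, these were Kcnf1 at 1 uM (adjusted p 0.0422 and 0.0488 without PDGF-AB replicate 2 or 1 uM replicate 3), Kcnt2 for 10 uM against 1 uM (0.0398) and for PDGF-AB against 10 uM (0.0482) without untreated replicate 3, Kcnj15 for PDGF-AB against 10 uM without dim genes (0.0423), Piezo1 for PDGF-AB against 10 uM without dim genes or with an intensity trend (0.0279 and 0.0106), Piezo2 for PDGF-AB against 1 uM without PDGF-AB replicate 2 (0.044) and Trpc5os for PDGF-AB against 1 uM without untreated replicate 3 (0.0454). Leaving out each array in turn gave 0 to 2 called channel genes for PDGF-AB against untreated (0 without untreated or PDGF-AB replicate 2; 1 without untreated replicate 1 or 3 or PDGF-AB replicate 1 or 3), 3 to 9 for 1 uM AG1296 (3 without untreated replicate 1; 4 without untreated replicate 3 or 1 uM replicate 1 or 2), 1 to 3 for 10 uM (1 without 10 uM replicate 2), 0 to 1 for 10 uM against 1 uM (1 without untreated replicate 3 or PDGF-AB replicate 2), 6 to 9 for PDGF-AB against 1 uM, 2 to 5 for PDGF-AB against 10 uM (2 without 10 uM replicate 1 or 2; 3 without PDGF-AB replicate 1 or 2) and 8 to 10 in the F test. With only the 6 arrays compared, the counts were 0 for PDGF-AB, 4 for 1 uM and 3 for PDGF-AB against 10 uM. For 10 uM against untreated, quantile normalization gave 5 and the intensity trend 5. For 10 uM against 1 uM these gave 1 and 2. Leaving out genes with a mean under 4.45 kept 25 channel genes and gave 5 at 1 uM, 4 at 10 uM and 2 for 10 uM against 1 uM. The labels number the replicates without stating a pairing, and 8 of 12 arrays correlated best with their own number. The replicate block gave 4 for 10 uM against untreated, and 2, 9, 0, 9 and 5 in the other comparisons. The cause of these changes was not tested. Calls over all genes in these settings are not given here, so the changes cannot be read as particular to the channel genes. For channel genes below the background level, this signal cannot show whether they differ between groups.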
